A study of Drosophila melanogaster with 33 samples.

Results

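The gene muscleblind (mbl, FBgn0265487) and its circular RNAs (circRNAs) were followed in fly heads across sex and age. The members were all circRNAs that the table assigns to mbl, 60 of the 7582 circRNAs listed, together with the linear reads of mbl, 1 of 16240 linear genes. Of the 60 circles, 21 passed a filter written after the study's methods, which keeps circRNAs that span 50 nucleotides or more and whose group means are never below 1 normalized read in the 12 groups, or which reach 10 in some sample. The filter kept 2775 circRNAs in all, a set that need not be the study's own list. A circRNA without reads in the day 0 group of a sex passes only by reaching 10 in a later sample. Calls of such circRNAs as higher than day 0 are therefore not independent of the filter, for mbl and for the background alike. A circle below is given by its genome start and end, and the most abundant, which is exon 2 of mbl, is called circMbl.

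Total RNA was sequenced after removal of ribosomal RNA, so that linear and circular RNAs were read in the same libraries. The flies were wild type (WT) CantonS (CS), kept at constant temperature in a light and dark cycle, and no group was treated. Each library came from pooled heads, in which brain, eye, fat body and muscle are mixed. Females and males were frozen at days 0, 10, 20, 30, 40 and 50, where day 0 stands for young flies that had mated for 3 days. Females had 3 libraries at each age, and males had 3 at days 0, 30 and 40 and 2 at days 10, 20 and 50, which the labels call biological replicates. In such bulk samples, fewer cells of a type and less RNA per cell cannot be told apart. The values are reads divided by a library size factor and are called normalized reads here. A circRNA was counted by reads that cross its back-splice junction, where a downstream end is spliced back to an upstream start.

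Muscleblind proteins are zinc finger proteins that bind RNA and regulate alternative splicing, in flies mainly in muscle, photoreceptors and neurons. The exon that forms circMbl is flanked by long introns with binding sites for the Muscleblind protein, which binds both these introns and the circle and promotes its formation, at the cost of linear splicing of the same transcript. CircRNAs have no free ends and are therefore not open to exonucleases.

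The gene lies on chromosome arm 2R of dm6 on the plus strand, from 17216549 to 17379376, a length of 162828 bases with 19 annotated transcripts. circMbl runs from 17275410 to 17276063, which is exactly 1 annotated exon of 654 bases that all 19 transcripts share. The start codon lies 465 bases into this exon, so the circle holds 189 coding bases preceded by 5′ untranslated sequence. The annotated intron downstream of it measures 75030 bases, at or above 99.5% of the 2214 circRNAs with annotated ends. The upstream intron measures 9198 bases (81.1%), and the medians over all these circRNAs were 2189 bases downstream and 2253 upstream.

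mbl ranked 2 by number of listed circRNAs among 1781 host genes, and 1 of 1041 hosts had more filtered circRNAs. The 60 circles use 20 starts and 26 ends. In 13 of them both ends lie at annotated exon ends, in 30 only 1 does, and in 17 neither. Of the 21 filtered circles, 8 have both ends annotated, 10 have 1 and 3 have none. Their median span was 36807 nucleotides, against 1767 over all filtered circRNAs, and the circle of 97752 nucleotides (17275410-17373161) had the longest span of all 2775. These spans are genomic distances, and the RNA between the ends was not seen by the junction read.

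circMbl took 90.1% of all back-splice reads of mbl, with a mean of 19720 normalized reads over 32 samples. Next were 17275410-17362097 with a mean of 986, 17275410-17316138 with 333 and 17275410-17359557 with 235 normalized reads. The start of circMbl was used by 19 circles, 12 of them filtered, and carried 98.8% of mbl back-splice reads, or 88.1% when circMbl itself is left out. Without circMbl, the end at 17362097, an annotated exon end downstream, held 51.3% of the reads, that at 17316138 held 15.9% and that at 17359557 held 11.0%. The 39 circles that did not pass together held 0.193% of the reads. Of all 60 circles 11 were detected in every sample, all of them filtered, 4 in at most 3 samples, and 26 had no read at day 0. Of the 39 that did not pass, 1 with a span of 6 nucleotides (17303328-17303333) fell under the span minimum. Among the other circles that did not pass the highest single value was 9.27 normalized reads (17351094-17354412), while the lowest peak value of a circle that passed was 10.02 (17295835-17362097).

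Several ends lie inside the long intron downstream of circMbl, at positions where the annotation shows no exon. The end at 17316138 lies 64 bases after a position used as a start by other circles (17316075), so that these ends enclose a short stretch. Such start and end pairs were also found at 17276746-17276778 (33 bases), 17295835-17295876 (42 bases), 17305987-17306037 (51 bases) and 17332576-17332641 (66 bases). Reads that join the start of circMbl to these unannotated ends were listed as separate circles. The pairs are described from positions only, and their sequence was not examined here.

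**Figure D1:**
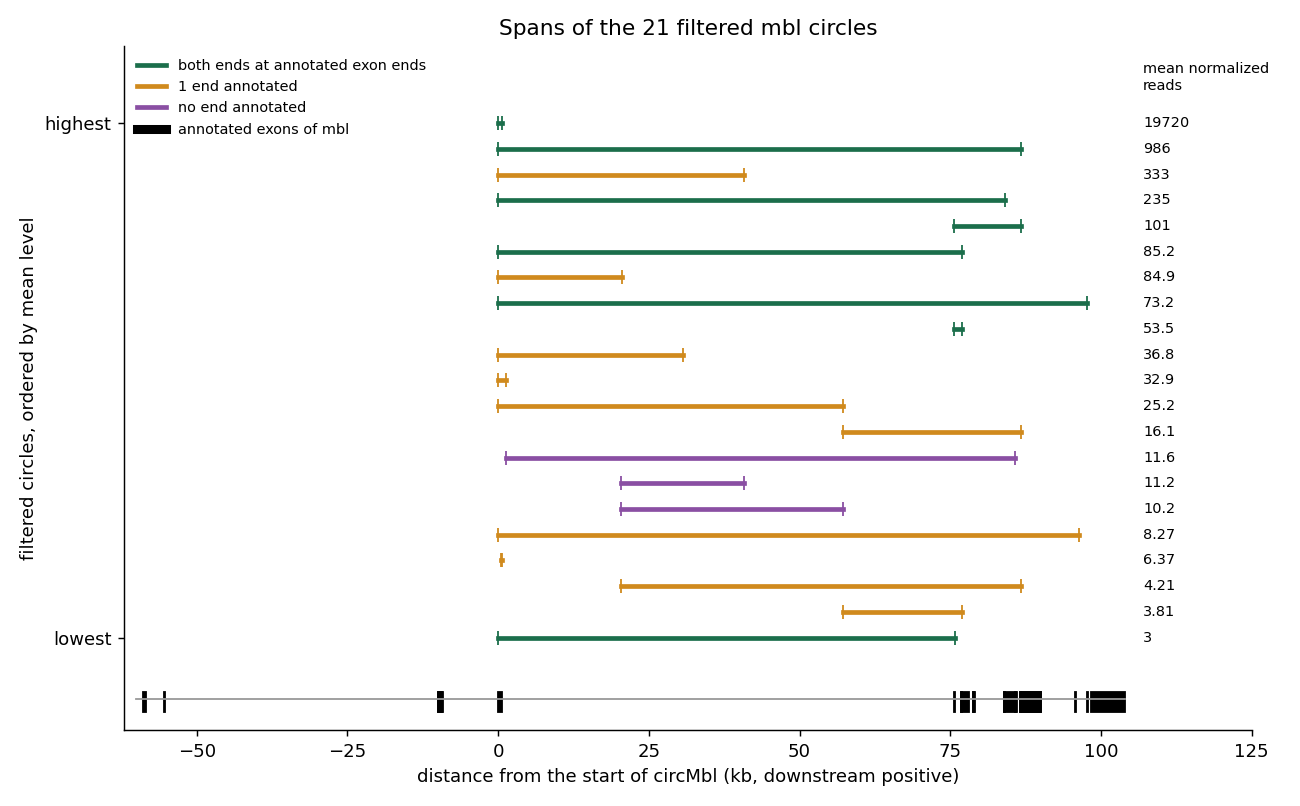
Genomic spans of the 21 filtered mbl circles, as distance in kb from the start of circMbl, ordered by mean normalized reads over 32 samples (numbers at the right). Line colour shows whether both, 1 or no end lies at an annotated exon end, and black boxes are the annotated exons. Most lines begin at 0 kb, and several end in the wide gap between exons.

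The depth recovered from the table was 28848182 to 94953552 linear reads and 22475 to 249768 back-splice reads per library (medians 56701537.5 and 136247.5). Of these, 2217 to 46445 back-splice reads (median 23047.5) came from circMbl, over the 32 libraries whose whole reads were recovered, all but male day 20 replicate 1. Replicates 1 and 2 of females at day 50 held the same back-splice reads for every circRNA, so they were averaged and counted once for circRNAs, while their linear reads differ and both were kept. 2 male libraries stood apart for mbl. Replicate 1 of day 20 and replicate 1 of day 40 had lower mbl values than the other libraries of their age. Some results that rest on them are given with and without them, and other male results of days 20 and 40 include them unless stated. Male libraries of these ages also spread in other genes. Genes for 19 RNA-binding proteins that bear on circle formation or splicing summed to 341110-510559 normalized reads at day 20 and 403510-484128 at day 40. The sums were 201660-256104 and 214174-240297 for 5 neuron markers, and 1610448-1744067 and 1519261-1564335 for 7 photoreceptor markers. Photoreceptor markers, such as the rhodopsin ninaE at a mean of 895787 normalized reads, were present as the label head requires, and summed germ line and male accessory markers reached at most 235 normalized reads per library.

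Linear mbl reads rose with age in both sexes and reached 2.42-fold (females) and 2.36-fold (males) of day 0 by day 50. In females the 3 samples had 46569, 44318 and 45683 normalized reads at day 0, and 62823, 63651 and 56990 at day 10. At day 20 they had 80774, 78427 and 80075, and at day 30 they had 92208, 91184 and 89966. At day 40 they had 104941, 103968 and 101065, and at day 50 they had 108220, 112122 and 110574. No 2 ages overlapped in females, and each age lay above the one before.

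In males the samples had 48754, 48867 and 48356 normalized linear reads at day 0 and 61750 and 65136 at day 10. At day 20 they had 43331 and 91666, and at day 30 they had 103608, 105799 and 109384. At day 40 they had 87903, 114657 and 114006, and at day 50 they had 112738 and 116904. The ages of 30 days and more lay above days 0 and 10 in every sample, but replicate 1 of day 20 (43331) lay below all day 0 samples, and day 40 overlapped with days 30 and 50.

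Every age was compared with day 0 by limma with Benjamini-Hochberg adjustment over all genes tested, so that the 5 comparisons of a sex share the day 0 samples. Fold changes are on the scale of log2(normalized reads + 1), and a feature was called when its fold change was beyond 0.5 on this scale with an adjusted p under 0.05. Linear mbl was called higher in females from day 20 on, with a log2 fold change of 0.81 at day 20 and 1.28 ± 0.14 (SE) at day 50 (limma adjusted p = 9.0e-09). In males it was called higher from day 30 on, with 1.13 at day 30 and 1.24 ± 0.16 (SE) at day 50 (limma adjusted p = 1.3e-07). At day 10 the changes of 0.42 in females and 0.38 in males were below the fold required. At day 20 in males the change was 0.37 and not called, and it was 0.91 without replicate 1 of that age. The 2 samples lay far apart, replicate 1 at 43331 normalized reads, below all male day 0 samples, and replicate 2 at 91666. Of all 12685 linear genes tested, 15.5%, 20.1%, 20.8%, 21% and 21% were called higher from day 10 to day 50 in females, and 15.8%, 18.3%, 18.5%, 19.7% and 19.9% in males. By fold change at day 50 mbl ranked 1039 (females) and 1037 (males) from the top. A read that lies within a circle and misses the junction counts as linear. Genes annotated inside the span of mbl had means of at most 171 normalized reads (lncRNA:CR43661, on the opposite strand), far below mbl.

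circMbl rose more steeply, to 5.91-fold (females) and 5.88-fold (males) of day 0 by day 50. In females the 3 samples had 5859, 4891 and 5498 normalized reads at day 0, and 11283, 11538 and 8929 at day 10. At day 20 they had 19831, 18757 and 19218, and at day 30 they had 24693, 25019 and 23521. At day 40 they had 30434, 29694 and 29709, and at day 50 the 2 samples had 32620 and 31449. As with the linear reads, no 2 ages of females overlapped.

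In males circMbl had 5804, 5735 and 5697 normalized reads at day 0 and 7164 and 10719 at day 10. At day 20 it had 6552 and 19732, and at day 30 it had 27335, 27224 and 28691. At day 40 it had 21354, 32484 and 31990, and at day 50 it had 33245 and 34378. All male samples after day 0 lay above those of day 0, and replicate 1 of day 20 and replicate 1 of day 40 were the lowest of their ages.

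In females circMbl was called higher at every age, with a log2 fold change of 0.96 at day 10 (limma adjusted p = 0.0038) and 2.57 ± 0.27 (SE) at day 50 (limma adjusted p = 6.5e-08). In males the change of 0.61 at day 10 was not called (limma adjusted p = 0.12, and 0.0053 without replicate 1 or replicate 2 of day 20). The change of 0.98 at day 20 was called (1.78 without replicate 1 of day 20). Its 2 samples lay far apart, replicate 2 at 19732 normalized reads and replicate 1 at 6552, the latter near the day 0 samples (5697 to 5804). At day 50 the change was 2.56 ± 0.27 (SE, limma adjusted p = 7.6e-08). The male change at day 10 was called by edgeR and DESeq2 on recovered reads (log2 fold changes 0.63 and 0.64), both of which lack replicate 1 of day 20. The least squares slope of circMbl on age was 574 normalized reads per day in females (SE 25.1, n = 17) and 609 in males (SE 70.8, n = 15). That of linear mbl was 1319 per day in females (SE 53.3, n = 18) and 1436 in males (SE 212, n = 15). Two-sided permutation tests gave p = 1e-05, the smallest that 100000 permutations can give, for all slopes but that of linear mbl in males (p = 8e-05). From day 0 to day 50 the linear count gained 2.19 reads in females and 2.12 in males for each back-splice read gained by the mbl circles.

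**Figure D2:**
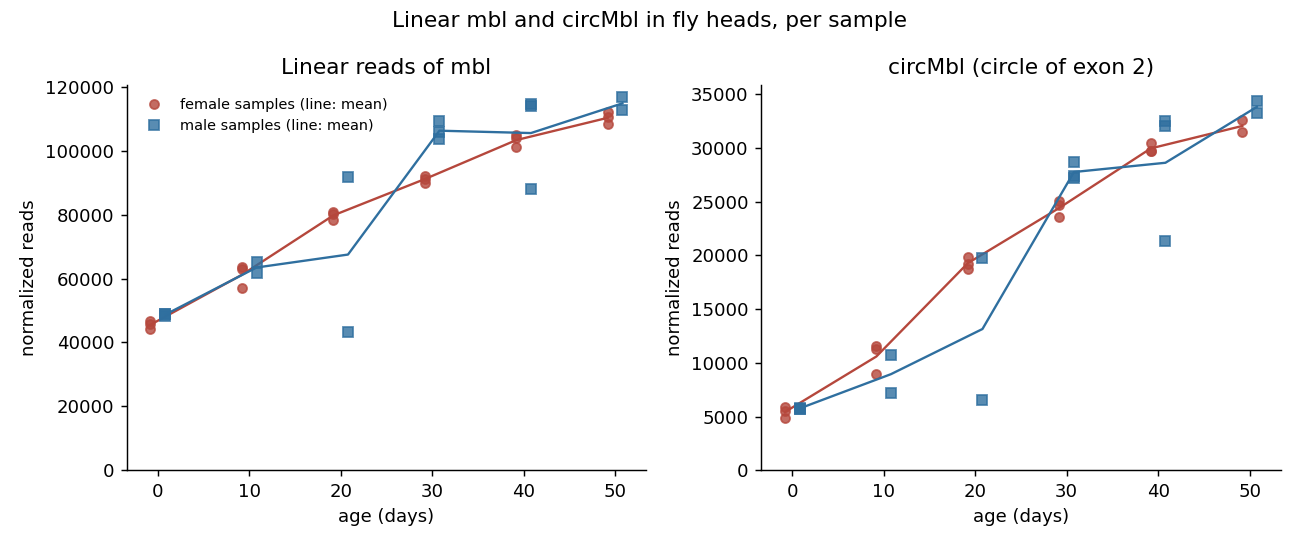
Normalized reads of linear mbl (left) and circMbl (right) against age in days, 1 point per sample, with lines through the group means of females (circles) and males (squares). Both rise with age, circMbl from 4891-5859 to 31449-34378 normalized reads, and the lower male points at days 20 and 40 are replicate 1 of each.

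The circle next in abundance, 17275410-17362097, joins an exon end downstream of the long intron back to the start of circMbl over 86688 bases. In females it had 74.4, 79.4 and 66.6 normalized reads at day 0, then 628, 629 and 473 at day 10, and 1552 and 1487 at day 50. In males it had 52.2, 95.3 and 69.2 at day 0, then 483 and 672 at day 10, and 1625 and 1574 at day 50. Every later sample lay above those of day 0 in both sexes. The means of days 20, 30 and 40 were 1065, 1248 and 1520 in females, and 804, 1585 and 1377 in males. Male replicate 1 was low at day 20 (394 against 1215) and at day 40 (821 against 1640 and 1669). Its log2 fold change was 2.95 in females and 3.00 in males at day 10, and 4.36 ± 0.33 and 4.49 ± 0.33 (SE) at day 50 (limma adjusted p = 3.2e-10 and 1.9e-10).

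The circle 17275410-17316138 ends inside the long intron, at 1 of the unannotated positions. Its female samples had 37.6, 19.9 and 31.8 normalized reads at day 0, then 270, 266 and 199 at day 10, and 384 and 410 at day 50. The male samples had 38.3, 37.4 and 20.2 at day 0, then 185 and 243 at day 10, and 467 and 473 at day 50. Female means were 405, 415 and 435 at days 20, 30 and 40, and male means were 314, 569 and 488. Female means thus lay between 397 and 435 from day 20 on, while the male mean was highest at day 30. The log2 fold change was 3.03 and 2.75 at day 10, and 3.74 and 3.89 at day 50 (SE 0.36), in females and males.

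The circle 17275410-17359557, which ends at an annotated exon end, had 37.6, 33.1 and 25.7 normalized reads in females at day 0 and 388 and 351 at day 50. In males it had 40.8, 32.7 and 39.4 at day 0 and 373 and 316 at day 50. Its means from day 10 to day 40 were 153, 265, 293 and 375 in females, and 134, 197, 357 and 293 in males. The log2 fold change at day 50 was 3.50 in females and 3.16 in males (SE 0.25), and the groups did not overlap.

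The circle 17275410-17352305 runs from the start of circMbl to the end of a later exon over 76896 bases. It had 9.60, 0 and 14.4 normalized reads in females at day 0 and 115 and 127 at day 50, and in males 15.5, 15.9 and 13.4 at day 0 and 138 and 121 at day 50. Its means from day 10 to day 40 were 46.5, 91.0, 105 and 130 in females, and 40.8, 82.9, 137 and 126 in males, so that both sexes were highest before day 50. The male change at day 10 (1.38) was not called. Its log2 fold change at day 50 was 4.48 in females and 3.04 in males (SE 0.66), and the female value was 3.26 without replicate 2 of day 0, the sample with no read and the lowest depth. Scaled to total circRNA reads the male call was lost (1.38, limma adjusted p = 0.22).

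Among circles that do not start with circMbl, 17351094-17362097 was the most abundant. It starts at the exon after the long intron and covers 11004 bases. Its female samples had 20.0, 13.2 and 24.2 normalized reads at day 0, then 52.3, 42.3 and 34.9 at day 10, and 178 and 167 at day 50. The male samples had 35.0, 20.5 and 22.1 at day 0, then 35.2 and 49.3 at day 10, and 174 and 204 at day 50. Its means of days 20, 30 and 40 were 90.0, 121 and 174 in females, and 90.9, 124 and 155 in males. The log2 fold changes were 1.15 and 0.71 at day 10, below those of 17275410-17362097, and 3.15 and 2.85 at day 50 (SE 0.25). The circle 17351094-17352305, which runs from the start of the exon of 171 bases to the end of the next, had log2 fold changes of 3.84 and 3.93 at day 50.

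Some of the less abundant circles were chosen for naming after their values were seen. The longest, 17275410-17373161, had 8.32 to 30.9 normalized reads in females at day 0 and 106 to 109 at day 50, and 6.54 to 12.5 and 130.2 to 138 in males. No sample of day 50 fell within the range of day 0, and the log2 fold changes were 2.68 and 3.68. The circle 17275410-17306037 ends at an unannotated position and had 0 to 4.41 normalized reads in females at day 0, against 38.1 to 53.0 at day 50, and 0.815 to 3.84 against 48.2 to 60.0 in males (log2 fold changes 4.27 and 4.09). The circle 17276746-17361127, with neither end annotated, had 0 to 2.40 normalized reads in females at day 0 and 19.6 to 20.3 at day 50. In males it had no read at day 0 and 19.2 to 20.3 normalized reads at day 50, at least 22.0-fold the level of 3 reads over the day 0 group. It therefore passed the filter only through its high values at later ages.

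Of the 21 filtered circles, 13 were called higher in females at day 10, where 29% of all 2775 filtered circRNAs were. The counts were 18 at days 20, 30 and 40 and 16 at day 50, beside 43.9%, 49.8%, 59.6% and 59.8% of all circRNAs. In males 11 were called at day 10, beside 17.1% of all circRNAs, and 7 without replicate 3 of day 10. Then 16, 20, 19 and 19 were called at days 20, 30, 40 and 50, beside 38%, 50.1%, 57.7% and 58.5%. These background shares depend on the scaling. At day 50, 1660 circRNAs were called higher and 101 lower in females (1622 and 97 in males), but 639 and 315 (473 and 307) when scaled to total circRNA reads, where 14 mbl circles were called higher in each sex. No circle of mbl was called lower at any age by limma, and none was at an unadjusted p under 0.05, by edgeR or by DESeq2. In each sex 3 circles had no read at day 0 and could not have been lower. By edgeR 13 circles in females and 15 in males were called higher at day 10 and 17 and 18 at day 50, and by DESeq2 14 and 15 at day 10 and 17 and 19 at day 50. The shares above are those of limma, so these counts are not set against a background of their own tool. The median log2 fold change of the 21 circles was 1.50 in females and 1.45 in males at day 10, against 0.70 and 0.42 over all circRNAs. At day 50 it was 3.15 and 3.16, against 1.85 and 1.80, and it was the same when the 3 circles of each sex without a read at day 0 were set at their lower bound.

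2 filtered circles were not called at day 50 in either sex. The circle 17332576-17362097, which starts at an unannotated position in the long intron, had female means of 9.16 and 16.7 normalized reads at days 0 and 50, and male means of 7.72 and 15.4 (log2 fold changes 0.68 and 0.97, limma adjusted p = 0.27 and 0.12). The circle 17275410-17351264, from the start of circMbl to the end of the next exon, had log2 fold changes of 1.82 and 0.81 (limma adjusted p = 0.12 and 0.51) and was the least abundant of the filtered circles, with a mean of 3.00 normalized reads.

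3 further circles were called at day 50 in males and not in females. The circle 17275901-17276063, which begins inside exon 2, had no read at day 0 in either sex. It passed the filter only through high later samples, the highest being 20.3 normalized reads in males at day 50. Its male call at day 50 uses that same sample and is not independent of the filter. Its day 50 samples had 0 and 7.89 normalized reads (females) and 7.40 and 20.3 (males), with means at least 3.98-fold and at least 15.4-fold the level of 3 reads over the day 0 group. The others were 17295835-17362097, with log2 fold changes of 1.05 and 2.05 in females and males, and 17332576-17352305. The latter had no read in females at day 0, so it passed the filter only through high single samples. The highest was 11.6 normalized reads, in males at day 50. The male call of 17332576-17352305 at day 50 uses that sample too and is not independent of the filter. None of the 3 differed between the sexes in its change by limma, with an adjusted p of 0.79 for 17275901-17276063. The circle 17275410-17371794 had no read at day 0 either and rose to means of 14.5 in females and 21.7 in males at day 50, at least 14.6-fold and at least 24.2-fold that floor. It too passed the filter only through high later samples, the highest being 34.8 normalized reads in males at day 50.

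**Figure D3:**
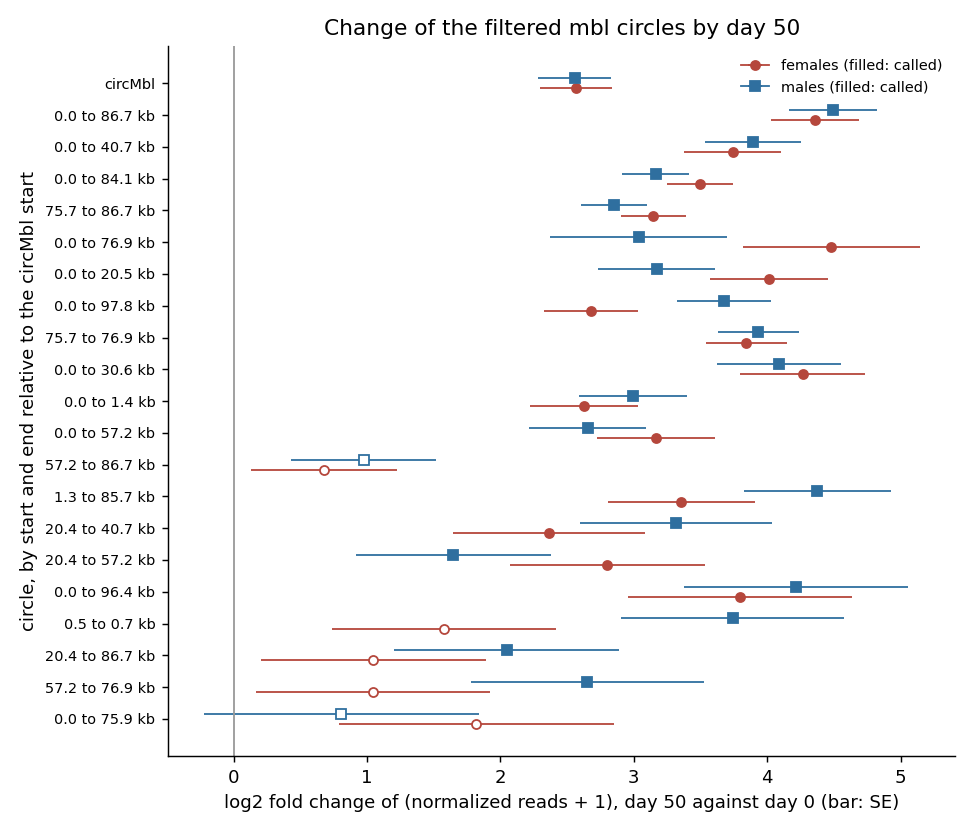
Log2 fold change of (normalized reads + 1) at day 50 against day 0 for the 21 filtered mbl circles, ordered by mean level and named by start and end in kb from the start of circMbl. Points are females (circles) and males (squares), bars are 1 SE, and open symbols were not called. circMbl, at the top, lies at 2.57 and 2.56, and all 21 circles have positive values in both sexes. In each sex 3 of them had no read at day 0 and could not have a negative value.

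When the circles were summed by their ends, those from the circMbl start to later ends stood at higher folds of day 0 than circMbl in every later sample. The female means of their sum were 182, 1187 and 2792 normalized reads at days 0, 10 and 50, and the male means were 195, 1106 and 2982. That is 6.53-fold and 5.67-fold of day 0 at day 10, and 15.4-fold and 15.3-fold at day 50. circMbl itself stood at 1.95-fold and 1.56-fold at day 10, and circRNAs of all other hosts at 1.45-fold and 1.24-fold.

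Circles that end at later annotated exon ends and those that end at unannotated positions both stood above circMbl in fold. The former stood at 6.25-fold and 5.89-fold at day 10 and at 16.04-fold and 16.4-fold at day 50, in females and males. The latter stood at 7.29-fold and 5.19-fold at day 10 and at 13.6-fold and 12.9-fold at day 50, and were highest at day 40 in females (14.4-fold) and at day 30 in males (15.1-fold). Circles from other starts had female means of 59.7, 115 and 402 normalized reads at days 0, 10 and 50, and male means of 64.1, 115 and 453. They thus stood at 1.93-fold and 1.79-fold at day 10, near circMbl, and at 6.74-fold and 7.06-fold at day 50. These sums were described and not tested.

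**Figure D4:**
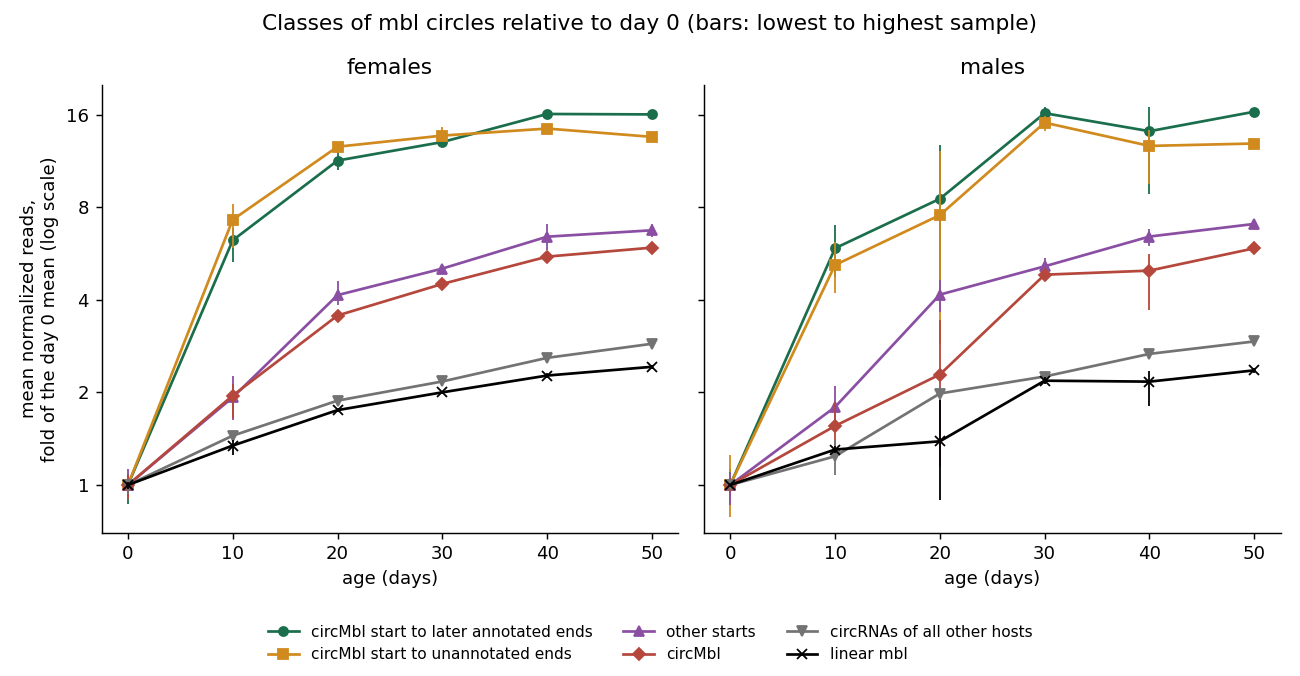
Mean normalized reads as a fold of the day 0 mean (log axis) against age in days, in females (left) and males (right), for linear mbl, circMbl, 3 classes of other mbl circles and circRNAs of all other hosts. Bars run from the lowest to the highest sample. Circles from the circMbl start to later ends stand at 5.19-fold to 7.29-fold by day 10, where circMbl stands at 1.95-fold and 1.56-fold.

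The composition of the mbl circles therefore differed between day 0 and all later ages. circMbl made up 95.8%, 95.3% and 96.1% of mbl back-splice reads in the female day 0 samples, and 89.1%, 89.0% and 89.1% at day 10. At day 50 it made up 90.9% and 91.0% in females. In males it made up 95.9%, 95.3% and 95.8% at day 0, then 87.9% and 88.1% at day 10, and 90.6% and 91.0% at day 50. The day 0 samples lay above every later sample, since the lowest at day 0 was 95.3% and the highest later one 91.0%. The male libraries of day 20, which had 6552 and 19732 normalized reads of circMbl, had 86.9% and 87.8%.

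Each circle was then tested by its log2 ratio to the sum of the other filtered circles of its host, over 2082 circRNAs of hosts with more than 1. This ratio is called share in the tests, and for circMbl its changes are on another scale than the percentages above. circMbl was called lower at every age in both sexes. In females the log2 change of this share was -1.54 at day 10 (limma adjusted p = 0.00026) and -1.24 at day 50 (limma adjusted p = 0.0036). In males it was -1.68 at day 10 (limma adjusted p = 0.00038) and -1.24 at day 50 (limma adjusted p = 0.0041). The call at day 50 in males was lost without male replicate 1 of day 50 (-1.21, limma adjusted p = 0.053).

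7 circles were called as gaining share at day 10 in females and 5 in males, beside 6.39% and 4.27% of all circRNAs called higher. Only circMbl was called as losing share, beside 7.44% and 3.51% called lower. circMbl held 90.1% of mbl back-splice reads, so the share of any other circle is close to its ratio to circMbl. The loss of circMbl and the gains of other circles are therefore not separate results. The largest drops in share, -1.69 in females and -1.97 in males, belonged to other circles and were not called. The 7 in females all begin with circMbl, as do 4 of the 5 in males. At day 50, 5 gained and 2 lost in females and 3 gained and 1 lost in males, beside 7.16% called higher in each sex and 8.65% and 7.97% called lower. At the ages between, 6 gained in females each time (7.78%, 9.32% and 9.13% of all circRNAs) and 7, 6 and 5 gained in males (6.1%, 8.55% and 8.74%). There, 1, 1 and 2 lost in females (9.13%, 10.6% and 11%) and 1 each time in males (6.72%, 9.61% and 10.9%). The circle 17275410-17362097 was among the gains throughout, with log2 changes of 1.93 and 2.34 at day 10 and 1.76 and 1.90 at day 50 (limma adjusted p = 0.00029 and 0.00015). The circle 17275410-17316138 gained 1.99 and 2.04 at day 10 and 1.11 and 1.27 at day 50. Its calls at day 50 were lost without female replicate 2 of day 0 or 3 of day 50, and without male replicate 3 of day 0 or 1 or 2 of day 50 (values between 0.92 and 1.28). The other circle that lost share at day 50 in females was 17332576-17362097 (-1.97).

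No share of a mbl circle was called between neighbouring ages after day 10. There, 2 tests were past an unadjusted p of 0.05 in females and 3 in males, and no count model was run on shares. Without male replicate 1 of day 20, 3 circles in place of 7 gained share at day 20 in males, and without male replicate 1 of day 40, 3 in place of 5 at day 40.

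**Figure D5:**
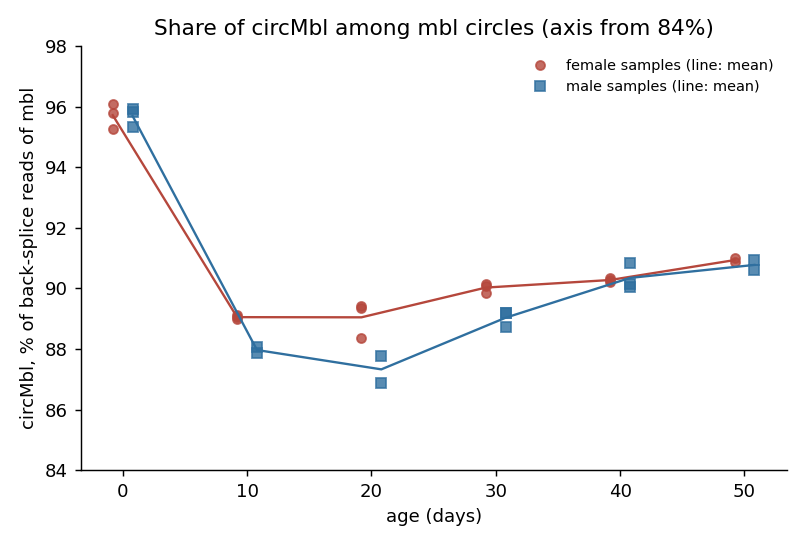
Back-splice reads of circMbl as a percentage of all mbl back-splice reads against age in days, 1 point per sample, with lines through the means of females (circles) and males (squares). The axis starts at 84%. All day 0 samples lie at 95.3% or above and all later ones at 91.0% or below.

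Cell type markers also differed between day 0 and day 10. In females the 7 muscle markers summed to 998645-1085310 normalized reads at day 0 and 176707-196301 at day 10, and in males to 758957-914297 and 110944-113913. 5 of the 7 were called lower at day 10 in each sex and 6 at day 50. In females and males, 18.3% and 16.5% of all linear genes were called lower at day 10, and 24.9% and 22.5% at day 50. In males 1, fln, was called higher at both ages. No muscle, photoreceptor or neuron marker was at 0 in any library. The 7 photoreceptor markers, at the same ages, summed to 887057-921768 and 1337639-1372642 in females, and to 957683-987641 and 1367765-1388646 in males. The most abundant, ninaE, had means of 412642 normalized reads in females and 418358 in males at day 0, and of 916004 and 873067 at day 50. At day 10, 3 of the 7 (ninaE, Rh4 and Rh6) were called higher and 1 (chp) lower in each sex, beside 15.5% and 15.8% of all linear genes called higher. At day 50 the same 3 were called higher, and chp and, in males, norpA lower, beside 21% and 19.9% of all linear genes called higher. The 5 neuron markers summed to 301570-306200 and 249614-261228 in females, and to 328717-344083 and 276228-278528 in males. At day 10, brp (log2 fold change -0.28 in females and -0.32 in males) and Syt1 (-0.47 in each sex) missed the fold threshold of a call. At day 50 the 5 neuron markers summed to 190941-196239 in females and 221756-224455 in males. Of these, 3 (brp, Syt1 and para) were called lower in each sex, beside 24.9% and 22.5% of all linear genes. The 4 glia markers summed to 169888-175809 and 89703-92408 in females and to 183724-192382 and 105851-108432 in males, and the 5 fat body markers to 349939-472905 and 1594926-1931938 in females and to 188385-220873 and 1003153-1065491 in males. The part of these changes in the levels and shares of mbl circles was not tested.

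circMbl also rose relative to the linear reads of mbl. There were 12.6, 11.0 and 12.0 circMbl reads per 100 linear reads in the female samples at day 0, 18.0, 18.1 and 15.7 at day 10, and 30.1 and 28.4 at day 50. In males there were 11.9, 11.7 and 11.8 at day 0, 11.6 and 16.5 at day 10, and 29.5 and 29.4 at day 50. Day 50 lay above day 0 in all samples, and 1 male sample of day 10 (11.6) lay below all male samples of day 0.

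The log2 ratio of circMbl to linear mbl changed by 0.54 at day 10 and 1.29 ± 0.12 (SE) at day 50 in females (limma adjusted p = 0.00027 and 1.1e-09). The value at day 10 fell below the fold required without female replicate 2 of day 0 (0.48) or of day 10 (0.50). In males it changed by 0.23 at day 10, which was not called, and by 1.32 ± 0.12 (SE) at day 50 (limma adjusted p = 9.0e-10). Over the 2595 circRNAs tested by ratio, circMbl ranked 1866 from the top in females and 1782 in males at day 50. Reads within a circle that miss the junction count as linear, so the linear count of mbl can rise with its circles and lower this ratio. How far this affects the rank of circMbl against other hosts was not tested. Of the 21 circles, 12 were called higher by ratio in females and 7 in males at day 10, beside 32.8% and 20.1% of all circRNAs, and 14 and 16 at day 50, beside 67.3% and 65.5%. At days 20, 30 and 40 the counts were 16, 15 and 15 in females, beside 51.4%, 57.8% and 66.3%, and 13, 16 and 16 in males, beside 47%, 57% and 64.9%. None was called lower by limma, and 1 was past an unadjusted p of 0.05, in males at day 10. No count model was run on ratios. Their median log2 change at day 50 was 1.87 and 1.93, against 2.18 and 2.06 over all circRNAs tested.

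mbl circles made up 10.6% of all back-splice reads at day 0 in females, 14.7% at day 10, 19.5% at day 20 and 20.5% at day 50. In males these means were 10.8%, 14.0%, 13.0% and 20.3%, where the male libraries of day 20 had 6.76% and 19.3%. The number of mbl circles with at least 1 read was 15 to 24 per sample at day 0 and 31 to 40 at day 50, in libraries of different depth.

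Between neighbouring ages, circMbl was called higher in females from day 10 to day 20, with a log2 change of 0.87 (limma adjusted p = 0.034). This call was lost when any 1 of the 6 libraries was left out, with adjusted p up to 0.129. In males it was called from day 20 to day 30 with 1.29 (limma adjusted p = 0.026), and was 0.49 and not called without replicate 1 of day 20. That call was also lost without any 1 of the day 30 libraries (limma adjusted p up to 0.083). Linear mbl was called between neighbouring ages in males from day 20 to day 30 only, with 0.75 (limma adjusted p = 0.0011, 7.11% of linear genes called higher), and the change was 0.21 and not called without replicate 1 of day 20. From day 10 to day 20 in males, the value was -0.01 for linear mbl and not called, but 0.53 and called without replicate 1 of day 20 and -0.55 and called without replicate 2 (3.32% of linear genes were called higher). For circMbl it was 0.38 and not called, but 1.17 and called without replicate 1 and -0.42, not called, without replicate 2.

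Over 8 comparisons of neighbouring ages after day 10, 11 of 168 tests on mbl circles were called by limma, all of them higher. They were 5 in females from day 10 to 20 (6.13% of all circRNAs), 2 in males from day 10 to 20 (10.5%) and 4 in males from day 20 to 30 (1.33%). From day 10 to 20 in males 5 were called without replicate 1 of day 20. The 4 from day 20 to 30 were 0 without replicate 1 of day 20, and also 0 by edgeR and DESeq2, which lack that library. In the other 5 comparisons no circle was called by limma, while 3 were past an unadjusted p of 0.05, 0 were called by edgeR and 2 by DESeq2.

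Males and females were compared at each age. circMbl differed by a log2 value of 0.08 at day 50 (male minus female, limma adjusted p = 1) and by -0.76 at day 20 (limma adjusted p = 0.17), and the latter was 0.03 without male replicate 1 of day 20 and -1.56, and called, without replicate 2. Linear mbl differed by 0.06 at day 50 and by -0.34 at day 20 (limma adjusted p = 0.084), or 0.20 without replicate 1 of day 20 and -0.88, and called, without replicate 2. In 126 tests of single circles between the sexes none was called by limma, edgeR or DESeq2, and 9 were past an unadjusted p of 0.05. Of all circRNAs, limma called 3.32%, 2.52%, 2.45%, 2.09%, 2.2% and 1.05% in either direction from day 0 to day 50. In 105 tests of whether the change from day 0 differed between the sexes, none was called by limma, edgeR or DESeq2, and 6 were past an unadjusted p of 0.05. The difference in the day 50 change of circMbl between the sexes was -0.01 ± 0.38 (SE).

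The linear genes most like linear mbl over the 33 libraries, by Pearson's r on the log2 scale, were Rbp9 (r = 0.975), a snoRNA gene of 2R (FBgn0263459, 0.966), del (0.964), Nmda1 (0.962) and Wbp2 (0.958). Rbp9 encodes a neuronal RNA-binding protein of the ELAV family, and its mean went from 35358 to 81119 normalized reads between days 0 and 50 in females. Nmda1 encodes a subunit of a glutamate receptor and went from 8599 to 18282. The circRNAs of other hosts most like circMbl over 32 samples came from Dbp80 (r = 0.982), Haspin (0.979), CG11155 (0.975), toy (0.972) and an intergenic locus (0.959). These values are descriptions, since all samples share the ages and the size factors. Among the filtered circles of mbl, r with circMbl was highest for 17275410-17295876 (0.968) and lowest for 17332576-17352305 (0.527), which has few reads.

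Among 19 genes for RNA-binding proteins that bear on circle formation or splicing, 1 rose and 5 fell at day 50 in females, and 1 rose and 3 fell in males, beside 24.9% and 22.5% of all linear genes called lower and 21% and 19.9% called higher. Their median log2 fold change was -0.22 and -0.18, against -0.04 and -0.03 over all genes. Rbp9 was the gene that rose, by 1.20 and 1.08 on the log2 scale. Adar, the RNA editing enzyme, fell by 1.06 and 0.90, how, a regulator of splicing in muscle and glia, by 0.91 and 0.79, and shep by 0.57 and 0.51. Rbfox1 and bru3 fell by 0.54 and 0.51 in females and had values of -0.31 and -0.32 in males that were not called.

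Of 4 genes for the export and turnover of circRNAs, Hel25E, a helicase needed for the export of long circRNAs from the nucleus, rose by 0.70 and 0.83 on the log2 scale, and the other 3 were not called, beside 21% and 19.9% of all linear genes called higher. Of 4 genes whose transcripts Muscleblind is known to splice, 3 fell in both sexes, beside 24.9% and 22.5% of all linear genes called lower. They were Actn (by 2.34 and 2.20 on the log2 scale), up (by 3.16 and 2.85) and Zasp52 (by 1.34 and 1.16), which encode muscle proteins, while Dscam2 had values of 0.17 and 0.36 that were not called. These are gene levels, and isoforms were not measured.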

How the data were processed

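Heads of wild type flies of both sexes and 6 ages were sequenced as ribosomal RNA depleted total RNA. Per the paper's methods, the authors aligned reads to dm6 with STAR, counted linear reads per gene with featureCounts and found back-splice reads with find_circ2 among unaligned reads. The deposited signal values are these counts divided by DESeq2 size factors estimated by the authors over all libraries. Tool versions and whether counting used the strand were not given in the sources used here. 2 male samples that the authors left out, day 10 replicate 2 and day 20 replicate 3, were not analysed here.

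From the deposited values, log2(value + 1) was fitted with limma 3.58.1 (R 4.3.3, trended and robust variance) as 12 group means, separately for 12685 linear genes (mean of at least 10), 2775 filtered circRNAs, 2595 ratios of circRNA to host linear reads and 2082 shares within a host, with Benjamini-Hochberg adjustment per contrast. The fits were tested on simulated data. Whole reads were recovered in 32 of 33 libraries, where 100% of values came within 0.01 of a whole number, and tested with edgeR 4.0.16 and DESeq2 1.42.0. Male day 20 replicate 1, whose size factor was too close to 1 for its reads to be taken as recovered, is not in those tests. Annotation was BDGP6.54 (dm6 coordinates). By rule the text names the 6 most abundant circles, circles whose call at day 50 is missing in a sex, the 5 genes and 5 circRNAs of other hosts most like mbl, and genes from fixed lists. Some less abundant circles, 17351094-17352305 among them, are named outside this rule, and some of these were chosen after their values were seen. The members and lists were chosen with earlier results of these data known. Pearson's r and slopes were computed with pandas 2.3.3, numpy 2.4.6 and scipy 1.17.1 under Python 3.11.15.

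Replicate numbers in the labels did not pair libraries, and no block was used. Whether replicates came from separate cultures is given only by the word biological, and p-values measure the spread between these samples. Alternatives tried were other pseudocounts, filters, scalings, count models, circRNAs and linear genes in 1 fit, a replicate block and leaving out each library.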

Additional observations from a re-analysis of the deposited data

How the results depend on the processing

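The changes of circMbl and of linear mbl from day 0 to day 50 kept their direction and their call in both sexes under every alternative run. Leaving out 1 library at a time gave 2.50 to 2.63 (females) and 2.53 to 2.58 (males) for circMbl and 1.26 to 1.29 and 1.21 to 1.26 for linear mbl. The number of mbl circles called higher was then 12 to 15 (females) and 7 to 12 (males) at day 10, and 16 to 17 and 17 to 20 at day 50. The change in the share of circMbl (log2 ratio to the other circles) at day 50 in males ranged from -1.31 to -1.18. It was -1.17 with no filter on circRNAs, where the call was lost (limma adjusted p = 0.051). The value of linear mbl from day 10 to day 20 in males ranged from -0.55 to 0.53 when a library was left out. It was 0.55 by edgeR, 0.53 by DESeq2 and 0.53 without both male libraries that stood apart, a setting chosen after seeing the data.

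Pseudocounts of 0.5 and 10 changed no call of linear mbl, circMbl or the named circles, but moved the counts of circles called at day 10 to 12 (females) and 9 (males) with 10, and at day 50 in males to 18 with either. Libraries with the same replicate number did not deviate together (mean correlation of linear deviations from the group means -0.0018 over 166 pairs). With the replicate number as a block, 13 and 17 mbl circles were called in females and 11 and 19 in males at days 10 and 50, and no call of linear mbl, circMbl or the named circles changed. Scaled to total linear reads, the median of all linear genes shifted by 0.12 (females) and 0.25 (males) at day 50, linear mbl stood at 1.40 and 1.49 and circMbl at 2.68 and 2.81. The day 10 values of linear mbl (0.58 and 0.56) and of circMbl in males (0.79) were then called, and circMbl from day 10 to day 20 in females (0.74) was not. Linear genes were then called 3228 higher and 2564 lower in females and 3893 and 1869 in males, against 2668 and 3164, and 2519 and 2859, with the deposited scaling. Scaled to total circRNA reads, the median circRNA shifted by -1.16 and -1.28, and circMbl stood at 0.87 and 0.84, still called, with 14 mbl circles called higher at day 50 in each sex, while the day 10 value of circMbl in females (0.36) was not. The count models were not run on ratios and shares. With circRNAs and linear genes in 1 fit, the male against female difference of circMbl at day 20 (-0.76) was called (limma adjusted p = 0.030). Depth limits circles without a read at day 0, whose level there may reach 0.992 (females) or 0.899 (males) normalized reads by counting error.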
